A study of Mus musculus with 11 samples.

Results

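The inward-rectifier potassium channels were followed here as 7 listed Kcnj genes in RNA of isolated mouse glomeruli. Of these, 6 were measured among 13734 genes in all, namely Kcnj12, Kcnj2, Kcnj1, Kcnj10, Kcnj16 and Kcnj15, and Kcnj8 was not analysed here. Members were taken by gene symbol, and the counts of their 23 transcripts were summed per gene. Kcnj12 was selected on its lower level in diabetic than in non-diabetic glomeruli of these same libraries, so its values in that contrast are given as a description, with no test. Kcnj1, Kcnj10, Kcnj16 and Kcnj15 are known from kidney tubules and are called the 4 tubular members.

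The 11 libraries fell into 3 groups. The db/db puerarin group (n = 3) was homozygous for the db mutation of the leptin receptor and received puerarin, an isoflavone glycoside of the kudzu root, by daily gavage (20 mg per kg) in 5% DMSO. The db/db vehicle group (n = 4) had the same genotype and received the 5% DMSO, and the db/m vehicle group (n = 4) held their heterozygous, non-diabetic littermates on the same vehicle. All groups were described as male, were dosed from 10 weeks of age for 6 weeks, and were placed on the BKS background by the protocol but on C57BL/6J by the strain field. The titles of 6 libraries carry a group tag with a number and those of 5 carry an S number, and both forms occur in every group (2 and 1 in db/db puerarin, 2 and 2 in each vehicle group). The sources used here do not give what the forms stand for, nor whether a library is 1 animal or a pool, so p-values measure only the spread between these libraries.

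Inward rectifiers pass potassium into a cell more easily than out of it, which lets them hold the membrane near the potassium equilibrium potential while still leaking potassium out at rest. Kcnj2 and Kcnj12 encode Kir2.1 and Kir2.2, the strong rectifiers that set the resting potential of muscle, endothelium and neurons. Kcnj1 encodes ROMK (Kir1.1), which recycles potassium across the apical membrane of the thick ascending limb and secretes it in the distal nephron. Kcnj10 and Kcnj16 encode Kir4.1 and Kir5.1, which join into the basolateral channel of the distal convoluted tubule and collecting duct, and Kcnj15 encodes Kir4.2, a basolateral channel of the proximal tubule that also pairs with Kir5.1.

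The members lie at 5 places in the genome (mm10, GENCODE vM21 spans). Kcnj12 lies at chr11:61022564-61071131, and Kcnj16 (chr11:110968033-111027968) and Kcnj2 (chr11:111066164-111076821) are neighbours, 38195 bases apart, elsewhere on that chromosome. Kcnj1 lies at chr9:32372493-32399197, Kcnj10 at chr1:172341210-172374085 and Kcnj15 at chr16:95257558-95300260, all on the plus strand. Kcnj15 overlaps the antisense genes Gm31641 and Gm49643, and since the sources used here do not give the use of strand in counting, their reads cannot be told apart. No other member overlapped another annotated gene.

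The 250 bases before a listed start of 5 members, from RefSeq on GRCm38.p6, are shown because 3 of these genes (Kcnj1, Kcnj10, Kcnj16) varied together and the pair Kcnj12 and Kcnj2 did not. Each is written on the plus strand, which is the coding strand, and ends at the base before that start. The starts of Kcnj12 and Kcnj1 are the later of 2 starts in the count table and lie inside the gene spans given above, so their windows are not upstream of the whole gene. Capitals mark, on either strand, the GC box GGGCGG, the hepatocyte nuclear factor 1 half-site GTTAAT or the TATA box TATAAA, and the CArG box of smooth muscle genes was searched by name as well. The motifs did not overlap one another in these windows.
Kcnj12, later of 2 starts, chr11:61065554-61065803: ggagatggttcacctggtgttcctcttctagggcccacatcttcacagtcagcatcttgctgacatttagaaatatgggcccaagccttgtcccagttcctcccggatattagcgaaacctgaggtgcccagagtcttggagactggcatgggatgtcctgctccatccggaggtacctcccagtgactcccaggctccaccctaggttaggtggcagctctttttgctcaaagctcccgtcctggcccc
Kcnj2, chr11:111065914-111066163: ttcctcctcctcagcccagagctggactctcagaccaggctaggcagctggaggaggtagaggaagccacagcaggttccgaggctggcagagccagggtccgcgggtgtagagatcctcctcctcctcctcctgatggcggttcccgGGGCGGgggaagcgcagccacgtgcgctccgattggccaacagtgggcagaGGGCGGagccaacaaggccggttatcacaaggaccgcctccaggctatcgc
Kcnj1, later of 2 starts, chr9:32393735-32393984: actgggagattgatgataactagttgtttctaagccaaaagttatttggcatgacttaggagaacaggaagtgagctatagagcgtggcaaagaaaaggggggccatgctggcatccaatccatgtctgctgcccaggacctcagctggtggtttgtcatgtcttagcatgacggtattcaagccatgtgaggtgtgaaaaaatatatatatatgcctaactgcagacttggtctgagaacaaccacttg
Kcnj10, chr1:172340960-172341209: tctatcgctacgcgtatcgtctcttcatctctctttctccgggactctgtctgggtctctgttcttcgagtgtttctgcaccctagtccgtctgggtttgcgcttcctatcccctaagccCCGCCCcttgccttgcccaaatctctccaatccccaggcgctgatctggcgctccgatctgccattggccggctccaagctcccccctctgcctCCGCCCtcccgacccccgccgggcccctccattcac
Kcnj16, first of 4 listed starts, chr11:110967783-110968032: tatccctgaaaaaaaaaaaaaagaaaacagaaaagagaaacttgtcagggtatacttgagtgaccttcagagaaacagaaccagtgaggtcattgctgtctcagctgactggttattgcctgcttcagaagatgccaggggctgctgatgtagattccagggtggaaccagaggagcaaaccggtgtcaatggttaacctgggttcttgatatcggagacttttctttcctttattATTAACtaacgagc

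The windows of Kcnj2 and Kcnj10 were rich in CpG, with 14 and 17 CpG and 65.6% and 62% G+C, against a median of 6 CpG and 52.4% over 32851 windows. Those of Kcnj12 (4 CpG, 56% G+C), Kcnj1 (2 CpG, 44.8%) and Kcnj16 (3 CpG, 42.8%) held fewer CpG than the median. GGGCGG stood at 2 places in each of Kcnj2 and Kcnj10 and is found in 32.7% of all windows. GTTAAT stood once in the Kcnj16 window, 14 to 9 bases before the start on the opposite strand, and is found in 6.43% of windows. TATAAA (12.4% of windows) and the CArG box (1.47%) were not among the letters of these 5 windows. The windows before the other listed Kcnj16 starts are not shown. Among them, the window from chr11:111019335 held TATAAA, 133 to 128 bases before its start. The window from chr11:111023610 held GGGCGG, 46 to 41 bases before its start. The motifs of Kcnj16 thus depend on the start taken.

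Per length, Kcnj1 and Kcnj16 were the most abundant members and Kcnj2 the least. On the scale of counts scaled to library size (CPM) per kilobase of the highest transcript, the level over the 11 libraries averaged 51.7 ± 26.4 for Kcnj1, 37.6 ± 16.5 for Kcnj16, 13.6 ± 6.92 for Kcnj15, 10.5 ± 6.19 for Kcnj10, 5.11 ± 1.47 for Kcnj12 and 0.485 ± 0.185 for Kcnj2 (SD, n = 11). Within libraries, Kcnj1 exceeded Kcnj16 in 10 of 11, Kcnj16 exceeded Kcnj15 in 11 of 11, Kcnj10 exceeded Kcnj12 in 9 of 11 and Kcnj12 exceeded Kcnj2 in 11 of 11. Kcnj15 exceeded Kcnj10 in 7 of 11 libraries, so these neighbours in the order did not differ beyond their spread.

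**Figure D1:**
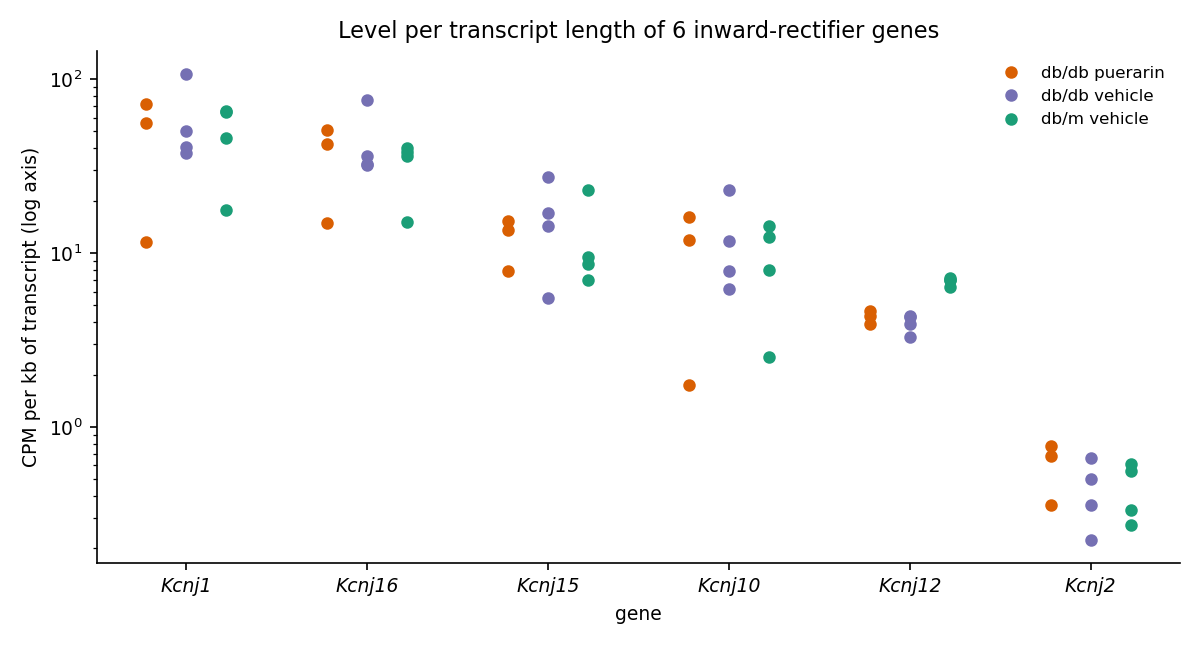
Level of the 6 measured inward-rectifier genes in CPM per kilobase of the highest transcript (log axis), 1 point per library, with db/db puerarin, db/db vehicle and db/m vehicle side by side for each gene. Kcnj1 averaged 51.7 and Kcnj2 averaged 0.485 over the 11 libraries, and the Kcnj12 points lie close together within each group.

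The summed libraries held between 35369703 and 44244460 counts. Podocyte markers (10 of 10 measured) summed to 13320 to 17325 CPM in db/db puerarin, 12049 to 15691 CPM in db/db vehicle and 14192 to 17669 CPM in db/m libraries, so the glomerular label matched its defining markers. Loop and distal tubule markers (10 of 10 measured) were present as well, at 1609 to 7920 CPM in db/db puerarin, 4468 to 12188 CPM in db/db vehicle and 2550 to 9601 CPM in db/m libraries. Xist, which is transcribed from the inactive X chromosome of females, reached 528 and 819 CPM in db/db puerarin 2 and 3 and lay between 0.519 and 6.47 CPM in the other 9 libraries, against the male label. The Y chromosome gene Ddx3y had 3.06 and 0.909 CPM in db/db puerarin 2 and 3, against 50.3 to 85.2 CPM in the other 9 libraries. Puerarin and sex thus cannot be told apart in contrasts that use db/db puerarin 2 and 3. In bulk RNA, fewer cells of a type and less RNA per cell cannot be told apart.

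Kcnj12 (Kir2.2) was the member with the steadiest level inside each group. It had 40.0, 33.5 and 36.9 CPM in the db/db puerarin libraries S144, 2 and 3. The db/db vehicle libraries S152, S153, 1 and 3 had 36.1, 33.4, 37.0 and 28.6 CPM, and the db/m libraries S184, S185, 2 and 3 had 53.8, 60.1, 60.0 and 58.7 CPM. Both db/db groups lay wholly below the db/m libraries and overlapped each other.

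In the contrast that selected it, Kcnj12 averaged 33.7 ± 3.78 CPM in db/db vehicle and 58.2 ± 2.99 CPM in db/m libraries (SD, n = 4 each). The fitted log2 fold change was -0.79 (SE 0.0991), with -0.87 among group-tag and -0.71 among S-number libraries, and it ran from -0.85 to -0.71 when each library was left out in turn. Over all genes, 6 of 13734 (0.0437%) passed an adjusted p of 0.05 in this contrast, and nothing is read from that share because the contrast chose the gene. Leaving the loop, proximal and collecting duct marker level in the model as a covariate gave -0.74.

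The selecting contrast did not compare the puerarin-treated libraries, although these are set here against the same db/m libraries and earlier results on them were known. Kcnj12 averaged 36.8 ± 3.26 CPM in db/db puerarin (SD, n = 3) and 58.2 ± 2.99 CPM in db/m libraries (SD, n = 4), a fitted log2 difference of -0.65 (SE 0.108). It was the 1 member of 6 whose db/db puerarin and db/m ranges did not overlap, while 7.65% of all genes had ranges that did not overlap. Nothing is read from that share, because Kcnj12 was selected on its high level in these same db/m libraries. The difference was -0.76 within the group-tag libraries and -0.51 within the S-number libraries. Db/db puerarin S144, with 0.873 CPM of Xist, had 40.0 CPM of Kcnj12 against 53.8 CPM in the lowest db/m library.

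Both Kcnj12 transcripts in the table gave like values, but they may count the same reads, so their likeness is no independent check. The transcript with the later start had 88.4% to 95.8% of the counts of the one with the earlier start across the 11 libraries. Counting the highest transcript only gave a log2 fold change of -0.81 (SE 0.103) for db/db vehicle against db/m. That contrast selected Kcnj12, so the value is given as a description only.

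Puerarin did not shift any member past the test within db/db mice. Of the 6 members, 0 passed an adjusted p of 0.05 in edgeR's quasi-likelihood test, as did 0 of all 13734 genes (0%). Over all genes 578 had an unadjusted p under 0.05 in edgeR, and DESeq2 called 15. Ranges of db/db puerarin and db/db vehicle overlapped for every member, and 3.23% of all genes had ranges that did not.

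For Kcnj12 the puerarin difference was small. It averaged 36.8 ± 3.26 CPM in db/db puerarin (SD, n = 3) and 33.7 ± 3.78 CPM in db/db vehicle (SD, n = 4). The fitted log2 fold change was 0.13 (SE 0.107, adjusted p = 0.967, edgeR), and it lay between 0.04 and 0.26 under the 21 other settings tried.

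Kcnj2 (Kir2.1) was scarce. It had 1.93, 3.68 and 4.21 CPM in db/db puerarin S144, 2 and 3, with 1.23, 1.94, 3.63 and 2.74 CPM in db/db vehicle S152, S153, 1 and 3, and 1.80, 1.49, 3.33 and 3.06 CPM in db/m S184, S185, 2 and 3. In every group the S-number libraries were the low ones. The log2 fold change of db/db puerarin over db/db vehicle was 0.30 (SE 0.195, adjusted p = 0.967, edgeR), and that of db/db vehicle over db/m was -0.03 (SE 0.181).

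**Figure D2:**
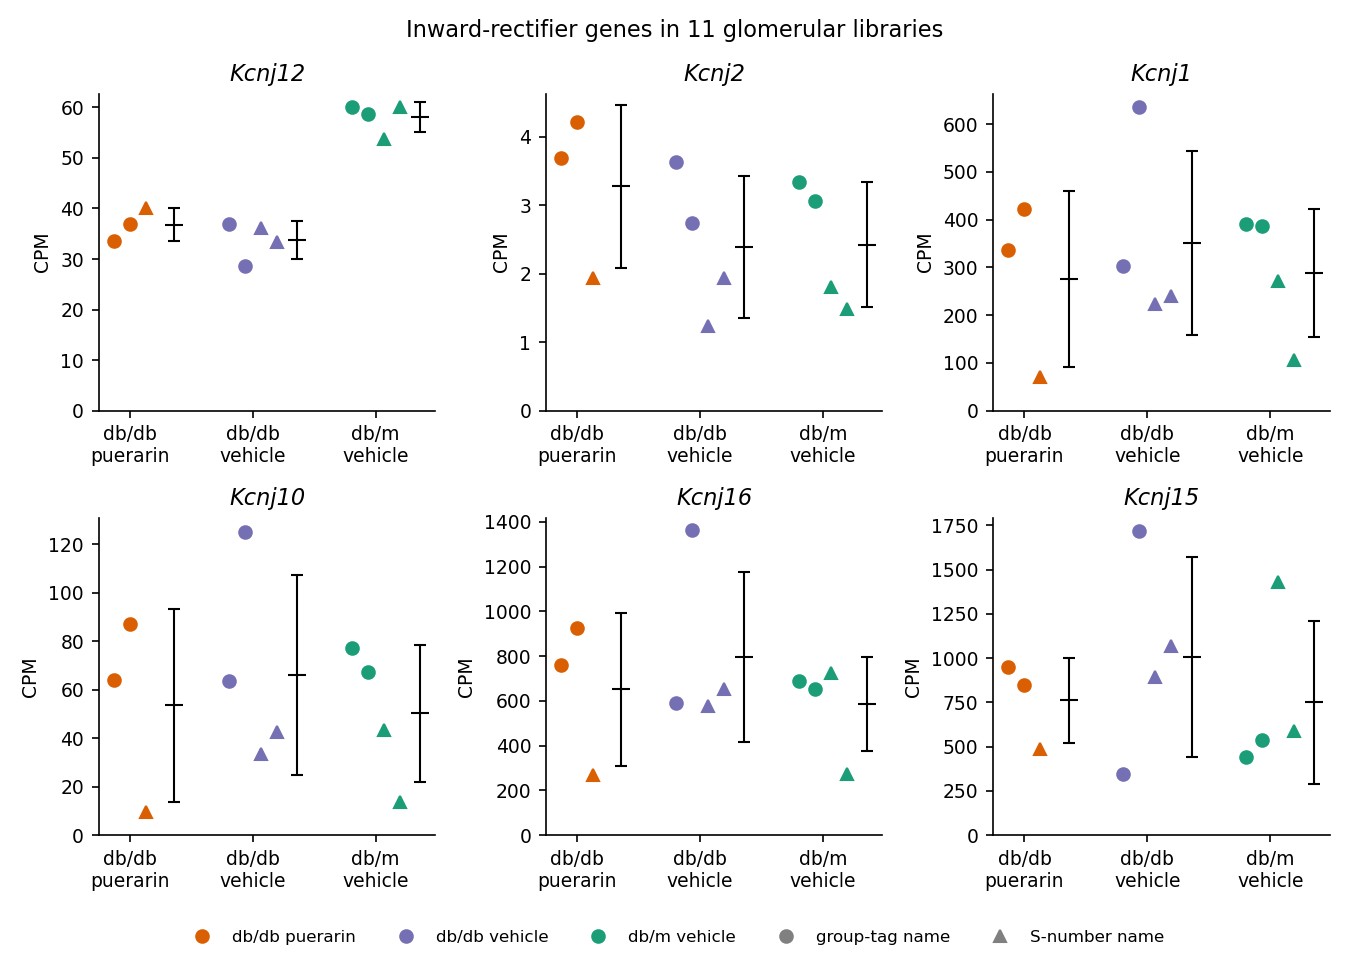
CPM of each measured member in the 11 libraries, by group from left to right as db/db puerarin, db/db vehicle and db/m vehicle, with circles for group-tag and triangles for S-number libraries and a bar for the group mean ± SD. Kcnj12 lies between 28.6 and 40.0 CPM in all 7 db/db libraries and between 53.8 and 60.1 CPM in the 4 db/m libraries, while Kcnj2 separates by name form and not by group.

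The tubular members varied far more between libraries than between groups. Kcnj1 (ROMK) had 69.6, 337 and 423 CPM in db/db puerarin S144, 2 and 3. It had 224, 241, 303 and 636 CPM in db/db vehicle S152, S153, 1 and 3, and 271, 106, 391 and 386 CPM in db/m S184, S185, 2 and 3. Db/db puerarin S144 and db/m S185 were the lowest libraries and db/db vehicle 3 the highest.

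Kcnj10 (Kir4.1) had 9.44, 64.1 and 87.0 CPM in db/db puerarin, 33.5, 42.6, 63.6 and 125 CPM in db/db vehicle and 43.2, 13.7, 77.1 and 67.1 CPM in db/m libraries, in the same order. Its partner Kcnj16 (Kir5.1) had 269, 761 and 924 CPM in db/db puerarin, 578, 654, 589 and 1362 CPM in db/db vehicle and 724, 272, 690 and 653 CPM in db/m libraries. For both, the same libraries were lowest and highest as for Kcnj1, and every group overlapped every other. The highest library exceeded the lowest 13.2-fold for Kcnj10, 9.13-fold for Kcnj1 and 5.06-fold for Kcnj16, against 2.11-fold for Kcnj12.

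Kcnj15 (Kir4.2) followed another order. It had 489, 948 and 846 CPM in db/db puerarin, 893, 1069, 345 and 1720 CPM in db/db vehicle and 1431, 591, 440 and 538 CPM in db/m libraries. Db/db vehicle 1 was its lowest library and db/m S184 its second highest. The 12 transcripts of Kcnj15 differed by at most 1.34% within a library, and the 5 of Kcnj16 by at most 0.426%, so their sums may count the same reads many times and only differences between libraries are read from them.

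The puerarin differences of the tubular members were negative and unresolved. The log2 fold change of db/db puerarin over db/db vehicle was -0.76 for Kcnj1 (SE 0.402), -0.83 for Kcnj10 (SE 0.461), -0.51 for Kcnj16 (SE 0.386) and -0.36 for Kcnj15 (SE 0.545), with adjusted p of 0.967 for the first 3 and 0.976 for Kcnj15 in edgeR. Leaving out single libraries changed their size. Without db/db puerarin S144 the values were -0.31 for Kcnj1, -0.33 for Kcnj10, -0.16 for Kcnj16 and 0.05 for Kcnj15. Without db/db vehicle 3 they were -0.59 for Kcnj1, -0.69 for Kcnj10, -0.24 for Kcnj16 and 0.44 for Kcnj15. S144 also had the lowest loop and distal tubule marker sum of all libraries, 1609 CPM, and its part in these values was not tested. With tubule level as a covariate the values were -0.29 for Kcnj1 (adjusted p = 0.538), -0.36 for Kcnj10 (0.613), -0.01 for Kcnj16 (0.994) and 0.48 for Kcnj15 (0.519), all in edgeR.

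Without the Xist-high libraries db/db puerarin 2 and 3, S144 was the only puerarin library left, and its spread was assumed to be that of the other groups. The log2 fold change was then -1.71 for Kcnj1, -1.99 for Kcnj10 and -1.24 for Kcnj16, still short of the test in edgeR (adjusted p = 0.802 for each). Kcnj15 also turned positive without db/db vehicle 3 (0.44). With the difference tested between name forms, the group-tag effect minus the S-number effect was 1.69 for Kcnj10 (adjusted p = 0.962, edgeR) and 1.43 for Kcnj1 (adjusted p = 0.962, edgeR).

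Between db/db vehicle and db/m, the other members gave log2 fold changes of 0.29 for Kcnj1 (SE 0.351), 0.41 for Kcnj10 (SE 0.401), 0.41 for Kcnj16 (SE 0.344) and 0.46 for Kcnj15 (SE 0.498). For db/db puerarin beside db/m they were -0.47 for Kcnj1 (SE 0.399), -0.42 for Kcnj10 (SE 0.457), -0.10 for Kcnj16 (SE 0.387), 0.10 for Kcnj15 (SE 0.566) and 0.27 for Kcnj2 (SE 0.195). These contrasts share their db/m libraries with each other, and no test is given for them.

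Several members separated by name form. In edgeR's test of group-tag against S-number libraries, 3 of the 6 members rose past an adjusted p of 0.05 and 0 fell, while 5.65% of all genes rose. The median log2 fold change of all genes in this contrast was -0.02. Kcnj2, Kcnj1 and Kcnj10 were also the 3 members whose name forms did not overlap in CPM, against 6.71% of all genes.

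Kcnj10 rose the most. Its 6 group-tag libraries had a lowest value of 63.6, a median of 72.1 and a highest value of 125 CPM, against 9.44 to 43.2 CPM in the 5 S-number libraries, a log2 fold change of 1.68 (SE 0.374, adjusted p = 0.0291, edgeR). Kcnj1 had 303, 389 and 636 CPM as lowest, median and highest group-tag values, against 69.6 to 271 CPM in S-number libraries, a log2 fold change of 1.34 (SE 0.324, adjusted p = 0.0378, edgeR). Kcnj2 had 2.74, 3.48 and 4.21 CPM in group-tag libraries, against 1.23 to 1.94 CPM in S-number libraries, a log2 fold change of 0.99 (SE 0.159, adjusted p = 0.00914, edgeR).

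Kcnj2 held its call when each library was left out in turn, but not without db/db puerarin 2 and 3 together (log2 fold change 0.99, adjusted p = 0.0736, edgeR). The calls of Kcnj10 and Kcnj1 were less stable, which did not pass under 8 and 10 of 19 other settings, with adjusted p reaching 0.131 and 0.169 in edgeR without db/db puerarin 2 and 3. Kcnj1 kept its call without db/m S184 or db/db vehicle 1, and Kcnj10 also without db/db puerarin 2 or 3, and each lost it when any other single library was left out (for example db/db puerarin S144, adjusted p = 0.0937 for Kcnj10 and 0.126 for Kcnj1, edgeR). Collecting duct markers (9 of 10 positive in this contrast, 5 past the test) and loop and distal tubule markers (10 of 10 positive, 7 past the test) were also higher in group-tag libraries. Of all genes, 5.65% rose past the test. The loop sums were 6227 to 12188 CPM in group-tag libraries against 1609 to 5950 CPM in S-number libraries. With tubule level as a covariate the log2 fold change was 1.06 for Kcnj10 (adjusted p = 0.00247, edgeR) and 0.73 for Kcnj1 (adjusted p = 0.0028, edgeR). That covariate also averages in the proximal level, whose median log2 fold change between name forms was -0.41, against 1.28 for loop and distal markers. It thus does not hold the loop and distal level equal, and no rise beyond tubule content is read from these values.

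The remaining members did not pass between name forms. Kcnj16 had a log2 fold change of 0.80 (SE 0.311, adjusted p = 0.143, edgeR), and it passed in DESeq2 (adjusted p = 0.0372) and in edgeR without db/m S184 (0.0244) or without db/db vehicle 1 (0.0491). With tubule level as a covariate Kcnj16 gave 0.19 (adjusted p = 0.285, edgeR). Kcnj12 had -0.06 (SE 0.085, adjusted p = 0.71, edgeR) and Kcnj15 -0.17 (SE 0.449, adjusted p = 0.832, edgeR). With tubule level as a covariate, Kcnj15 gave -1.17 and passed (adjusted p = 0.003, edgeR). That level is the mean of the proximal, loop and distal, and collecting duct levels. Between name forms the median log2 fold change was -0.41 for proximal, 1.28 for loop and distal and 1.36 for collecting duct markers. The covariate thus does not hold the proximal level equal, and no lower Kcnj15 per proximal content is read from -1.17.

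**Figure D3:**
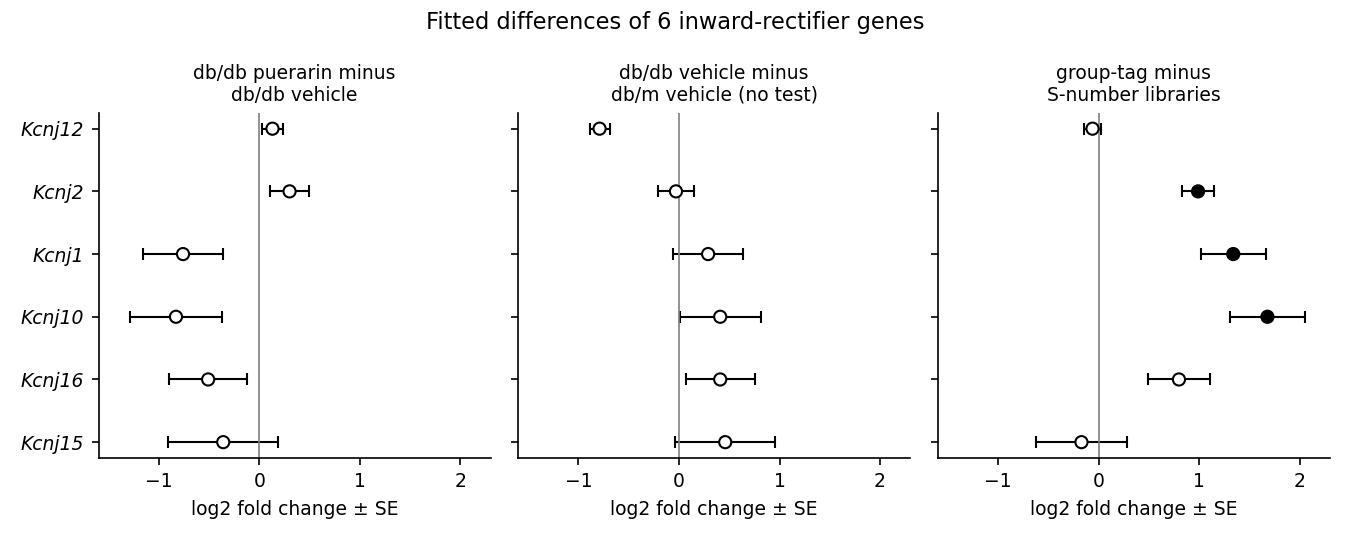
Fitted log2 fold changes ± SE of the 6 measured members for db/db puerarin over db/db vehicle, db/db vehicle over db/m vehicle and group-tag over S-number libraries. Filled points passed an adjusted p of 0.05 in edgeR, which Kcnj2 (0.99), Kcnj1 (1.34) and Kcnj10 (1.68) did between name forms, and the middle panel carries no test.

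A ratio of channel partners, chosen after its values were seen, is given as a description. Per length, Kcnj16 was 3.55 and 3.18 times Kcnj10 in the group-tag libraries db/db puerarin 2 and 3, 2.78 and 3.26 times in db/db vehicle 1 and 3, and 2.68 and 2.91 times in db/m 2 and 3. In the S-number libraries it was 8.53 times Kcnj10 in db/db puerarin S144, 5.15 and 4.60 times in db/db vehicle S152 and S153, and 5.01 and 5.91 times in db/m S184 and S185. The 2 forms did not overlap in this ratio, which is free of library scaling. Kcnj10 by itself did not overlap between the forms either. No share over gene pairs is given, so nothing particular to these partners is read from the ratio. Kcnj1 over Kcnj10 overlapped, at 4.3 to 5.19 in group-tag and 5.15 to 6.96 in S-number libraries.

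Across the 11 libraries the distal members moved as a set, which Kcnj15 joined within the group-tag libraries, and Kcnj12 stood apart. In log2 CPM over the 11 libraries, Pearson's r was 0.994 between Kcnj10 and Kcnj1, 0.952 between Kcnj16 and Kcnj1 and 0.944 between Kcnj16 and Kcnj10, and 0.966, 0.923 and 0.94 when only the 6 group-tag libraries were taken. The r of Kcnj15 over the 11 libraries was 0.356 with Kcnj1, 0.297 with Kcnj10 and 0.572 with Kcnj16. Within the 6 group-tag libraries it was 0.789, 0.755 and 0.928, so Kcnj15 is not separable from the distal members there. The r of Kcnj12 over the 11 libraries was -0.241 with Kcnj1, -0.273 with Kcnj10, -0.433 with Kcnj16 and -0.438 with Kcnj15. These are descriptions over libraries that share their scaling and name form.

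Each member was set against the marker list of the cells it is known from, 6 relations in all. Kcnj16 followed the loop and distal tubule level over 11 libraries (Pearson's r = 0.964, permutation p = 6e-05, adjusted p = 0.00036, Spearman's rho = 0.891, permutation p = 0.00058, adjusted p = 0.00228). Without db/db puerarin S144 and db/m S185, the libraries farthest from the median, r was 0.858. The loop and distal tubule level did not overlap between name forms, which the permutation over 11 libraries does not take into account. Within the 6 group-tag libraries r was 0.944 (exact permutation p = 0.00694, adjusted p = 0.0417) and rho 0.943 (exact permutation p = 0.0167, adjusted p = 0.1). These were adjusted over the 6 relations within group-tag libraries. Kcnj15 followed the proximal tubule level (Pearson's r = 0.864, permutation p = 0.00048, adjusted p = 0.00144, Spearman's rho = 0.873, permutation p = 0.00076, adjusted p = 0.00228), with r = 0.746 without the 2 farthest libraries and 0.895 among those with a group tag.

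Kcnj1 and Kcnj10 fall into separate clusters by name form, so their relations are given within the 6 group-tag libraries only. With the loop and distal tubule level, r was 0.882 for Kcnj1 (exact permutation p = 0.0389, adjusted p = 0.055; rho = 0.657, exact permutation p = 0.175, adjusted p = 0.262) and 0.838 for Kcnj10 (exact permutation p = 0.0458, adjusted p = 0.055; rho = 0.657, exact permutation p = 0.175, adjusted p = 0.262). Without db/db vehicle 3 and 1 these became -0.483 and -0.104 over 4 libraries, so the relation within group-tag libraries rests on those 2. All tests were two-sided.

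**Figure D4:**
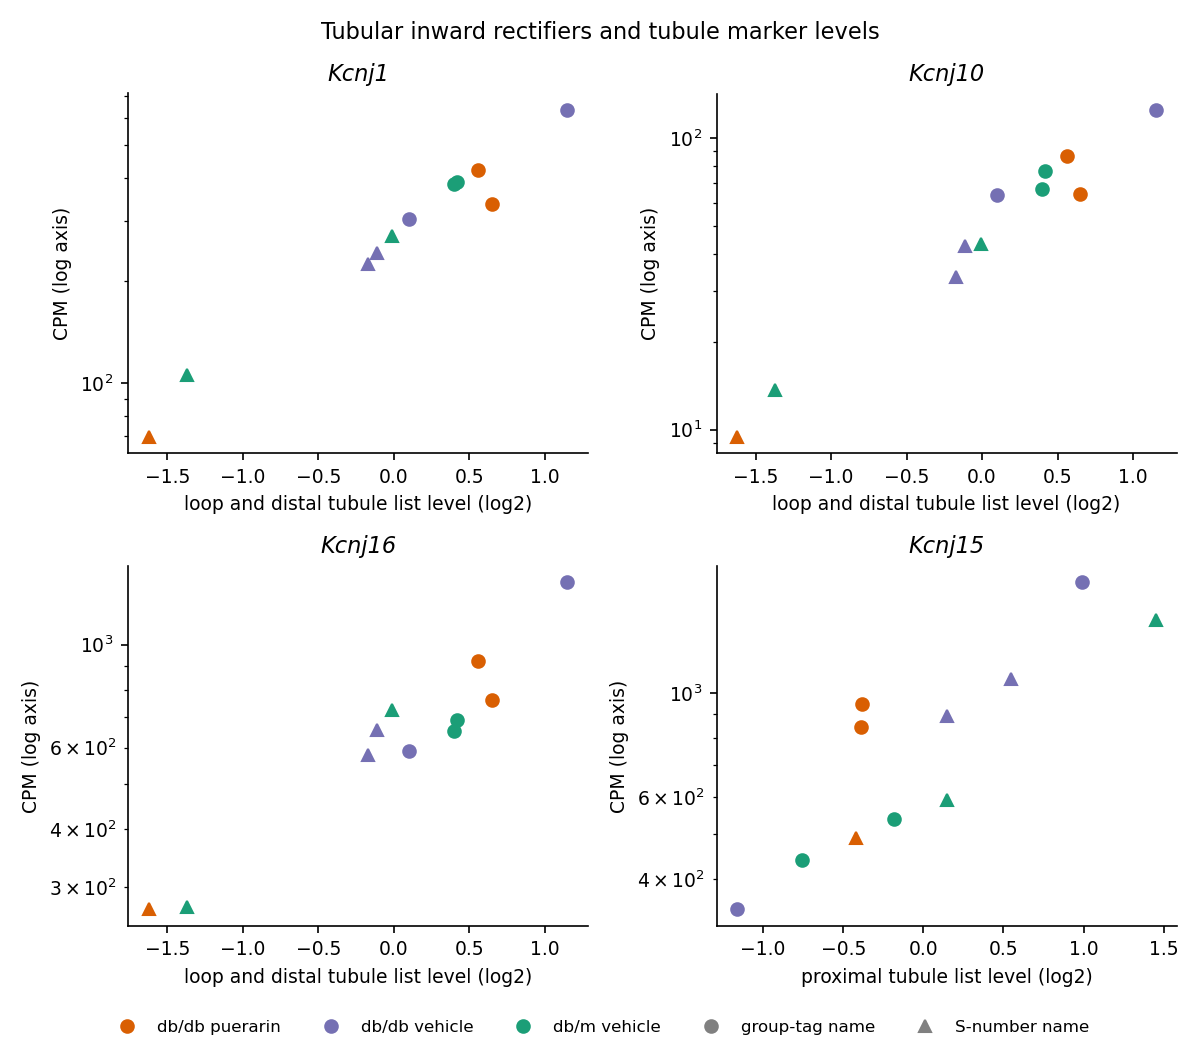
CPM (log axis) of the 4 tubular members against the level of a tubule marker list (mean over its genes of log2 CPM minus each gene's mean over the 11 libraries), with colours for groups, circles for group-tag and triangles for S-number libraries. Kcnj1, Kcnj10 and Kcnj16 are lowest in the 2 libraries with the lowest loop and distal tubule level (-1.62 in db/db puerarin S144 and -1.37 in db/m S185), and Kcnj15 is lowest where the proximal tubule level is lowest (-1.16 in db/db vehicle 1).

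The 2 Kir2 members did not follow the lists set for them firmly. Kcnj12 falls into separate clusters by genotype, so it was set against the podocyte level within the 7 db/db libraries, where r was 0.773 (exact permutation p = 0.0456, adjusted p = 0.055) and rho 0.536 (exact permutation p = 0.236, adjusted p = 0.283). Without db/db vehicle 3 and db/db puerarin S144 r was -0.296, so it rests on those libraries. Kcnj2 had r = 0.335 with the glomerular endothelial level within the 6 group-tag libraries (exact permutation p = 0.522, adjusted p = 0.522, rho = 0.371, exact permutation p = 0.497, adjusted p = 0.497).

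Among 13734 genes, those averaging at least 5 CPM were ranked by Pearson's r with each member over the 11 libraries, as a description. The nearest to Kcnj12 were Npr1 (r = 0.969), a receptor for atrial natriuretic peptide, H2-Q5 (0.949), a class I histocompatibility gene whose reads may be shared with near-identical copies, Mtcl1 (0.94), a microtubule crosslinker, Zfp423 (0.939), a zinc finger transcription factor, and Cdc42bpg (0.932), a kinase that binds Cdc42. Npr1 averaged 265 CPM in db/db puerarin, 245 CPM in db/db vehicle and 330 CPM in db/m libraries. Its r over the 6 group-tag libraries was 0.979. Both sets of libraries include the db/m libraries on whose high level Kcnj12 was selected. Genes that are high there rank near it for that reason alone, and nothing further is read from these values.

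For Kcnj2 the nearest genes were Tagln (r = 0.971) and Acta2 (0.959), which encode contractile proteins of smooth muscle, and Kcna5 (0.955), a voltage-gated potassium channel. Their r within the group-tag libraries was 0.863, 0.898 and 0.821. Acta2 had 142 to 309 CPM in the 6 group-tag libraries, against 48.1 to 81.8 CPM in the 5 S-number libraries. As for Kcnj2, the S-number libraries were the low ones in every group.

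Among the tubular members, Kcnj1 was nearest to Sfrp1 (r = 0.997), a secreted Wnt modulator and Cdh1 (0.995), the epithelial cadherin. Kcnj10 was nearest to Kcnq1 (0.998), a voltage-gated potassium channel, Scnn1a (0.996), a subunit of the epithelial sodium channel, and Atp6v1b1 (0.995), a proton pump subunit of intercalated cells. Kcnj16 was nearest to Atp6v0a4 (0.991), another such subunit, Acss1 (0.99), an acetyl-CoA synthetase, and Ank3 (0.99), an ankyrin. Kcnj15 was nearest to Pdzd3 (0.995), a scaffold protein, and Dpyd (0.985) and Pipox (0.985), enzymes of pyrimidine and pipecolate breakdown.

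**Figure D5:**
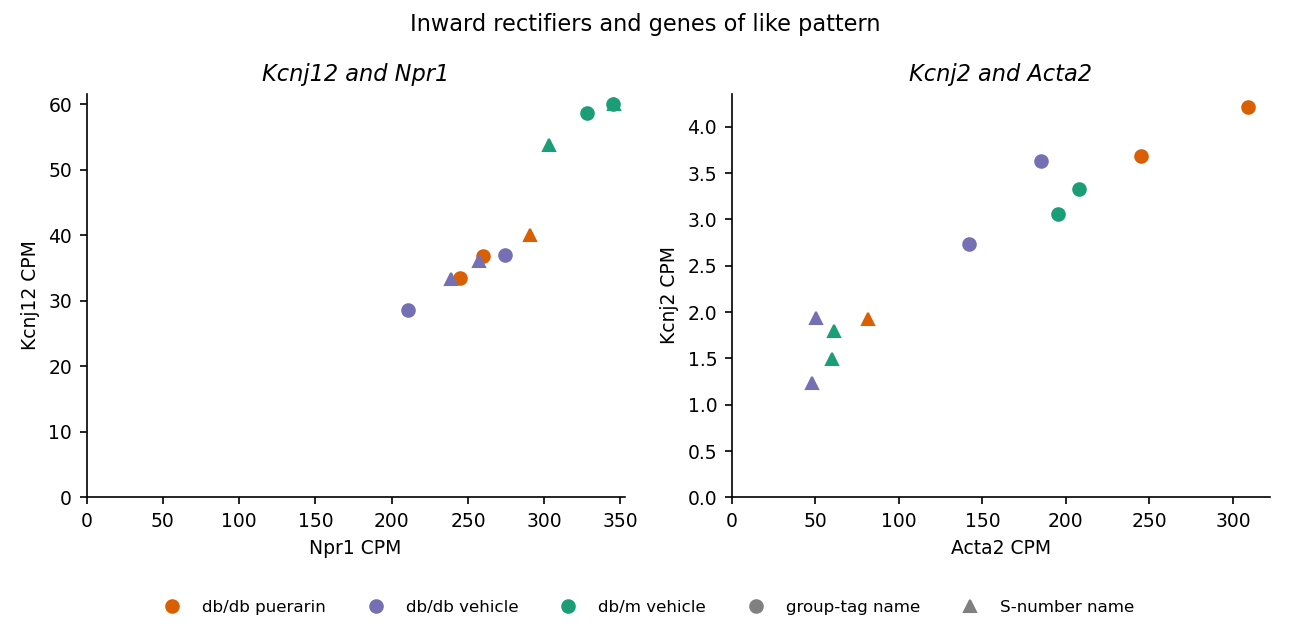
CPM of Kcnj12 against Npr1 and of Kcnj2 against Acta2 in the 11 libraries, with colours for groups, circles for group-tag and triangles for S-number libraries. Kcnj12 and Npr1 are both highest in the 4 db/m libraries (53.8 to 60.1 CPM of Kcnj12), while Kcnj2 and Acta2 are both lowest in the 5 S-number libraries (1.23 to 1.94 CPM of Kcnj2).

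Of 10 other inward rectifiers and their sulfonylurea receptor partners, 3 were measured and 0 passed in either test. Kcnj5 (Kir3.4), a G-protein-gated channel and the neighbour of Kcnj1 at a distance of 28142 bases, had 47.2, 25.4 and 33.2 CPM in db/db puerarin, 47.4, 43.4, 45.6 and 21.5 CPM in db/db vehicle and 44.5, 65.1, 36.9 and 40.9 CPM in db/m libraries. Its log2 fold change was -0.10 for db/db puerarin over db/db vehicle (SE 0.231, adjusted p = 0.985, edgeR) and -0.52 for group-tag over S-number libraries (SE 0.182, adjusted p = 0.112, edgeR). It was thus lower in the mean where its neighbour Kcnj1 was higher. Abcc9, which encodes the SUR2 subunit of vascular ATP-sensitive channels, averaged 26.7 ± 3.75 CPM in db/db puerarin (SD, n = 3), 33.7 ± 5.45 CPM in db/db vehicle and 40.3 ± 13.6 CPM in db/m libraries (SD, n = 4 each), and Abcc8 (SUR1) averaged 8.38 ± 0.931, 8.40 ± 2.06 and 7.97 ± 1.33 CPM in the same groups.

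Of 23 potassium channels of other families, 19 were measured. For puerarin over vehicle in db/db mice, 0 passed, 9 were positive and 10 negative, and the median was -0.02, equal to that of all genes. Small p-values belonged to Kcna5 (log2 fold change 0.46), a voltage-gated channel, and to Kcnk13 (-3.43), a two-pore channel with counts down to 1, and Kcne1 (-0.90), a channel subunit, all with an adjusted p of 0.967 in edgeR. Between name forms 9 of the 19 rose past the test and 0 fell, while 5.65% of all genes rose. The median was 0.78 against -0.02 for all genes.

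Of the 9, 8 are named here. Kcna5 (1.26, adjusted p = 0.00262), Kcna2 (0.98, 0.0125), Kcnk3 (1.02, 0.0241), Kcnmb1 (0.94, 0.027) and Kcnma1 (0.29, 0.0423) are known, among other tissues, from vascular muscle (log2 fold change and adjusted p in edgeR). Kcne1 (1.90, 0.0184), Kcnq1 (1.54, 0.023) and Kcnk1 (1.23, 0.0234) are known from tubule epithelium. Among mesangial and pericyte markers, which include Acta2 and Tagln, 4 of 10 also rose between name forms, against 5.65% of all genes, and 5 of 10 were negative.

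Of 18 genes for salt transport partners and regulators of the distal channels, 18 were measured, and 3 of them are also in the loop and distal tubule marker list. For puerarin over vehicle in db/db mice 0 passed, 16 were negative and the median was -0.54, against -0.02 for all genes. The smallest p-value of the list was that of the kinase gene Stk39 (-0.41). The only positive genes were the kinase genes Sgk1 (0.35) and Oxsr1 (0.08, SE 0.0846), and Oxsr1 is named for its sign and not for a small p-value. Stk39, Sgk1 and Oxsr1 all had an adjusted p of 0.967 in edgeR. Between name forms 12 rose past the test and 0 fell, with a median of 0.99, while 5.65% of all genes rose.

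The 12 held cotransporters that work with ROMK and Kir4.1/Kir5.1 and kinases that control them. Slc12a3, the thiazide-sensitive cotransporter, had a log2 fold change of 1.79 and Slc12a1, the furosemide-sensitive one, 1.30 (adjusted p = 0.0275 and 0.0357, edgeR). The kinase genes Wnk4 (1.64), Wnk1 (0.79) and Stk39 (0.62), the ubiquitin ligase genes Klhl3 (1.38) and Nedd4l (0.61), the channel subunit gene Bsnd (1.39) and the calcium receptor gene Casr (1.54) passed as well. Sgk1 (-0.24) and Oxsr1 (-0.06) did not pass.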

How the data were processed

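Whole-number read counts per RefSeq transcript were taken as the authors deposited them. BWA, limma and mm10 are named, without versions, per the submitters' processing notes, and the sources used here do not say how reads were assigned to transcripts. The authors' deposited log2 values are those counts on a log2 scale plus a constant per library, and served only to check the columns. Of 15 count columns, 4 matched no sample and were not used.

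Counts of 22320 transcripts were summed to 13734 genes, with 13 blank cells as 0 and 50 symbols turned into dates restored by transcript identifier. A sum counts reads shared by transcripts more than once, so its precision is below what the count implies. CPM used TMM factors. edgeR 4.0.16 (glmQLFit and glmQLFTest, R 4.3.3) was fitted to the 11 libraries together, with terms for group and for name form, a count of at least 1 in 3 libraries, and Benjamini-Hochberg adjustment over all genes. DESeq2 1.42.0 was an alternative, and the script was tested on simulated data. Correlations used log2 CPM (prior count 1) and two-sided permutation (SciPy 1.17.1, 100000 resamples, or exact below 10 libraries), adjusted over 6 relations.

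The members and gene lists were chosen with earlier results of these data known. The genes named beyond the members were those of the channel and partner lists past an adjusted p of 0.05, or else the 2 with the smallest p in each direction, and the 5 (Kcnj12) or 3 genes nearest in pattern. Some genes that this rule takes are not reported here.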

Additional observations from a re-analysis of the deposited data

Results flagged for a closer look

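Within groups of 4 to 6 libraries, the gap between an extreme library and its nearest neighbour was large against the whole range for 4 values. Kcnj16 in db/db vehicle 3 reached 1362 CPM, while the other 3 of that group had 578 to 654 CPM. Kcnj16 in db/m S185 was at 272 CPM, against 653 to 724 CPM in the other db/m libraries. Kcnj15 in db/m S184 stood at 1431 CPM, against 440 to 591 CPM in the other db/m libraries. Kcnj1 in db/db vehicle 3 stood at 636 CPM, apart from the other 5 group-tag libraries. Of 24 groups examined in this way, chance flags about 1 in 20. The same libraries were extreme in tubule markers, with a loop and distal tubule level of 1.15 for db/db vehicle 3 and of -1.37 for db/m S185, and a proximal tubule level of 1.45 in db/m S184. Their part in these values was not tested.

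For 2 members, every db/db puerarin library lay above every db/m library in the group-tag form and below every db/m library in the S-number form. Kcnj16 was higher than db/m by 0.32 on the log2 scale in group-tag libraries and differed by -0.72 in S-number libraries, a gap of 1.04. Its S-number values were 269 CPM in db/db puerarin S144, 272 CPM in db/m S185 and 724 CPM in db/m S184. S144 thus lay barely below S185. Kcnj15 differed by 0.88 in group-tag libraries and by -0.91 in S-number libraries, a gap of 1.79. These 2 came from 18 pairs of a member and a contrast examined in this way, and no share over all genes is given. With 1 or 2 libraries on each side such a split can arise by chance, so nothing particular to Kcnj16 and Kcnj15 is read from it. The S-number side is 1 puerarin library (S144), and this difference was not tested.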

How the results depend on the processing

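No paired analysis was possible because the db/db puerarin and db/db vehicle groups share only 1 replicate number. Counts over all genes moved the most. For puerarin against vehicle in db/db mice, against 0 genes called, DESeq2 called 15, tubule level as a covariate gave 1, and leaving out each library gave 0 to 5 (5 without db/db puerarin S144). For db/db vehicle against db/m, against 6 genes, DESeq2 gave 290, tubule level as a covariate 126, no name form term 1, the 2 groups alone 2, omission of db/db puerarin 2 and 3 gave 2, and leaving out each library 0 to 82 (82 without db/db vehicle 1, 0 without any 1 of db/db puerarin 3, db/db vehicle S153 or 3, or db/m S184, S185 or 3). For name form, against 957 genes, DESeq2 gave 1885, omission of db/db puerarin 2 and 3 gave 81, and leaving out each library 163 (without db/db puerarin S144) to 1791 (without db/db vehicle 1).

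Between name forms the sign of Kcnj12 turned with tubule level as a covariate (0.07), and its log2 fold change ran from -0.10 to 0.01 over the omissions of 1 library. Kcnj15 turned there too, from -0.69 to 0.18. For puerarin against vehicle, Kcnj15 gave 0.48 with tubule level as a covariate and -0.70 to 0.44 over the omissions, and no other member turned. The r of Kcnj2 with the endothelial level ran from -0.305 to 0.675. The cause of these shifts was not tested. Kcnj2 had counts of only 48 to 162 per library.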
